A study of Drosophila melanogaster with 4 samples.

Results

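Control wing imaginal discs were measured on 1 Affymetrix array, 1 of the 4 arrays of a study of PI3K overexpression and Hdac3 knockdown in the fly. The wing disc is a larval epithelial sac from which the wing blade, its hinge and the dorsal body wall of the fly develop. The discs were dissected from 3rd-instar larvae grown at 25 °C. The flies were yellow white (yw) and carried 1 copy of the en-Gal4 driver (genotype yw; en-Gal4/+), and no UAS transgene is named in this genotype. The driver produces the yeast activator Gal4 in the posterior compartment, and all 4 genotypes of the study carry it. The sources used here do not give the number or sex of the animals, or whether discs were pooled. The array was taken by its title, and the 11982 genes with a name were ranked by linear intensity within it. These genes come from 13647 of the 18952 probe sets. With 1 array there is no spread between replicates, and nothing below was tested or set against another array.

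In a growing disc, posterior cells secrete Hedgehog and cells along the compartment boundaries secrete Dpp and Wingless, and these signals set the patterns of transcription factors for pouch, hinge and notum. The columnar epithelium proliferates until the ecdysone pulse at the end of larval life. Muscle precursors, tracheal branches and hemocytes lie on the epithelium and come along with it in a dissection. Because the disc is bulk tissue, fewer cells of a type and less RNA per cell cannot be told apart. The intensity of a probe set also depends on how well its probes bind, so the ranks order signals and not molecules per cell.

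The floor separating signal from background was taken from genes that a wing disc has little reason to use. It is the 90th percentile of 126 chemosensory receptor probe sets (odorant and gustatory), an intensity of 25.1, while their median was 9.76. Of all named genes, 7743 or 64.6% were at or above the floor and 4239 were under it. The highest 10% of named genes, 1198 by construction and called the top band below, began at an intensity of 1232. The log2 intensities of the named genes fell into a lower group most populated between 11.3 and 16 and an upper group most populated between 362 and 512. The fewest genes in between, 341, lay between 90.5 and 128. The floor sits on the upper flank of the lower group, so the 1883 genes between the floor and 90.5 are not clearly set apart from background. At or above 90.5 were 5860 genes, 48.9% of all. The 10 genes just at or above the floor ran from 25.07 to 25.15, and the 10 just under it ran from 24.91 to 25.03.

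**Figure D1:**
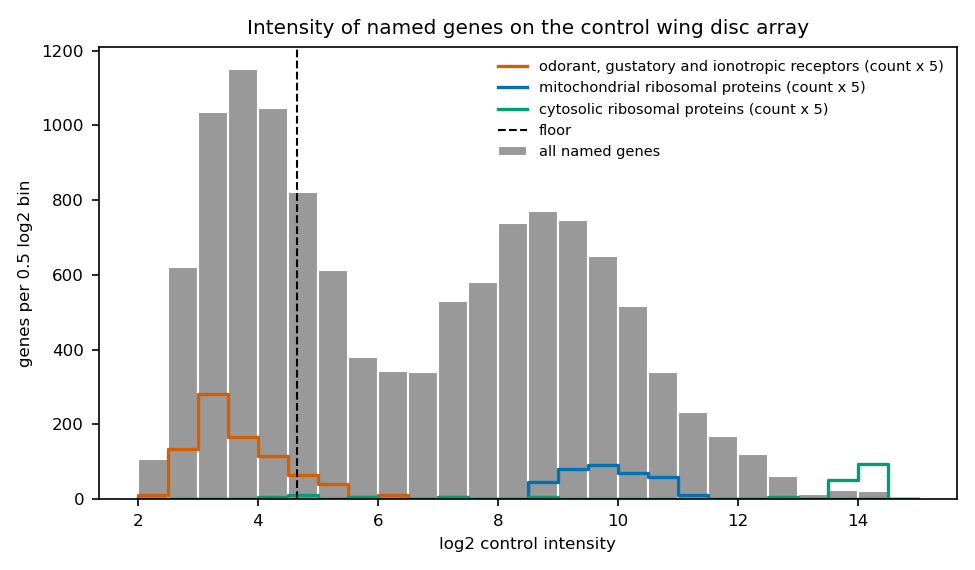
Number of named genes per 0.5 log2 bin of control intensity (grey bars), with the floor as a dashed line. Outlines show chemosensory receptors, mitochondrial ribosomal proteins and cytosolic ribosomal proteins with counts multiplied by 5. The receptors lie mostly under the floor by construction, since it was set from odorant and gustatory receptor probe sets. The mitochondrial ribosomal proteins lie between 402 and 2258, and most cytosolic ribosomal proteins at the far right.

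Each gene took the value of its brightest probe set, and 10888 genes had only 1. For 817 genes at or above the floor with several probe sets, the gap between the brightest and the dimmest had a median of 2.44 log2 units, with quartiles of 1.35 and 4.33. In 443 of them the dimmest was under the floor. The widest gap, 10.40 log2 units, was that of the ribosomal protein gene RpS29, with 18488, 17582 and 13.7 in its 3 probe sets. Gaps between genes can therefore come from their probes, and the ranks are read in broad bands. A value under the floor does not show that a transcript is missing. Pdi, a protein disulphide isomerase of the endoplasmic reticulum, read 8.81, and Tim13, a small chaperone of mitochondrial import, read 8.35. Both have a single probe set here.

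The brightest genes were those of the ribosome. Of the 25 highest named genes, 21 encode cytosolic ribosomal proteins, and 29 of the highest 50 do. RpL41 led with an intensity of 20734, followed by RpLP1 with 20604, RpL37A with 20359 and RpL15 with 20121. Then came RpLP2 with 19771, RpL10Ab with 19369, RpL23 with 19056 and RpS15 with 18948. RpS29, RpS27A, RpL32, RpS28b, RpS26, RpL28, RpL36A, RpS12, RpS7, RpS18, RpS21, RpLP0 and RpL40 filled most of the remaining places, between 18488 for RpS29 and 15935 for RpL40. The 4 others were eEF5, the hypusine-carrying translation factor, at 16567, the cofilin gene tsr at 16550.1, the beta-tubulin gene betaTub56D at 15947 and the cyclophilin gene Cyp1 at 15925. Further down the first 50 were abundant chaperones and stress-linked genes: the small heat shock gene Hsp27 had 13885, the constitutive chaperone gene Hsc70-4 had 13378 and the glutathione S-transferase gene GstD1 had 12096. ImpE2, first known as a gene that ecdysone induces in imaginal discs, stood at 14159 among them, at rank 35. With probe sets whose suffix marks possible cross-hybridisation left out, 13 of the 25 highest genes stayed among the highest 25.

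Machinery of translation and protein turnover filled the top of the array. Among 36 cytosolic ribosomal protein genes, 34 were at or above the floor and 30 were in the top band, with a median of 16728. The 2 under the floor were RpL10Aa (23.7) and RpS10a (16.8), each a paralogue of another ribosomal protein gene. Without the suffixed probe sets, 16 cytosolic ribosomal protein genes were in the top band. Translation factors had 40 of 48 at or above the floor and 30 in the top band. After eEF5 came eEF1gamma at 12354 and the RNA helicase gene eIF4A at 11224, and eIF4E7, a cap-binding paralogue, was lowest at 6.201. Proteasome subunits had 29 of 38 at or above the floor and 26 in the top band. The core subunits Prosbeta3 (7494), Prosbeta7 (6287) and Prosbeta2 (6052) led, and Prosbeta4R2 had 6.45. Splicing and RNA-binding protein genes were all at or above the floor, 37 of 37, with 23 in the top band. The splicing regulators SC35 (8472) and SF2 (7701) and the RNA-binding protein gene vig2 (7666) led them, and elav, a neuronal RNA-binding protein gene, was lowest at 305.

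Chaperones were mostly in the top band. In the heat shock and chaperone family 22 of 27 were at or above the floor and 18 in the top band, or 11 without the suffixed probe sets. The disulphide isomerase gene ERp60 had 8175 and the chaperonin subunit gene CCT5 had 7018. Hsp68, which heat induces, had 777. Under the floor were Hsc70-1 (17.2), Hsp60C (16.5), Hsp60D (13.6) and Hsc70-2 (9.77) beside Pdi.

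Mitochondrial genes were high as well. All 71 mitochondrial ribosomal protein genes were at or above the floor, between 402 for mRpS6 and 2258 for mRpL47, with mRpS21 at 2166 and mRpL30 at 1959. The list's median was 908, and 19 were in the top band. Oxidative phosphorylation had 62 of 77 at or above the floor and 47 in the top band. Its highest were the ATP synthase subunit gene blw (10048), ND-MLRQ of complex I (9072) and ATPsynF (8582), and its lowest was ND-B8 of complex I (5.43). Carriers and import genes had 18 of 19 at or above the floor, led by the ADP/ATP translocase gene sesB (8809), Tim17b (7426) and the phosphate carrier gene Mpcp2 (5558). The TCA cycle had 10 of 10, with 7 in the top band, from the isocitrate dehydrogenase gene Idh at 6234, Mdh1 at 2915 and Scsalpha1 at 2815 down to Idh3b at 272.

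Glycolysis had 14 of 17 genes at or above the floor and 8 in the top band. Enolase (Eno, 5776), triose phosphate isomerase (Tpi, 5601) and Gapdh1 (5003) were highest. Hexokinase split by gene, with Hex-A at 394 and Hex-C at 23.2, under the floor. Pglym87 (21.8) was under it while the other phosphoglycerate mutase gene, Pglym78, had 922. The trehalose synthesis gene Tps1, whose activity is best known from fat body, had 16.9.

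Some members under the floor were named copies, all of them in the proteasome and oxidative phosphorylation lists. Across the housekeeping lists, 25 genes carry the name of another measured gene plus the letter T, R or L; this grouping was chosen after the values were seen. Of the 25 copies, 17 were under the floor, beside 4239 of all 11982 named genes. Their median was 15.2, and the highest was Rpt3R at 131. No such copy was among the 8 translation factors and 13 vacuolar proton pump genes under the floor. Of the 20 genes they are named after, 19 were at or above the floor and 18 were in the top band. Prosbeta5 had 4608 against 7.35 for Prosbeta5R1 and 12.5 for Prosbeta5R2. COX4 of the terminal respiratory complex had 6002 against 11.2 for COX4L, and ATPsynCF6 had 4294 against 14.4 for ATPsynCF6L. UQCR-11 went the other way, with 22.8 under the floor and 38.8 for UQCR-11L. Of the numbered genes of the vacuolar proton pump, Vha16-1 had 4557. Vha16-2, Vha16-3, Vha16-4 and Vha16-5 had 12.4, 27.5, 24.9 and 24.1. In the whole pump family 18 of 31 were at or above the floor (58.1%), near the 64.6% of all named genes. In the top band were 10 (32.3%, beside 10%), with Vha13 at 3317, Vha14-1 at 3014 and Vha68-3 lowest at 5.22.

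**Figure D2:**
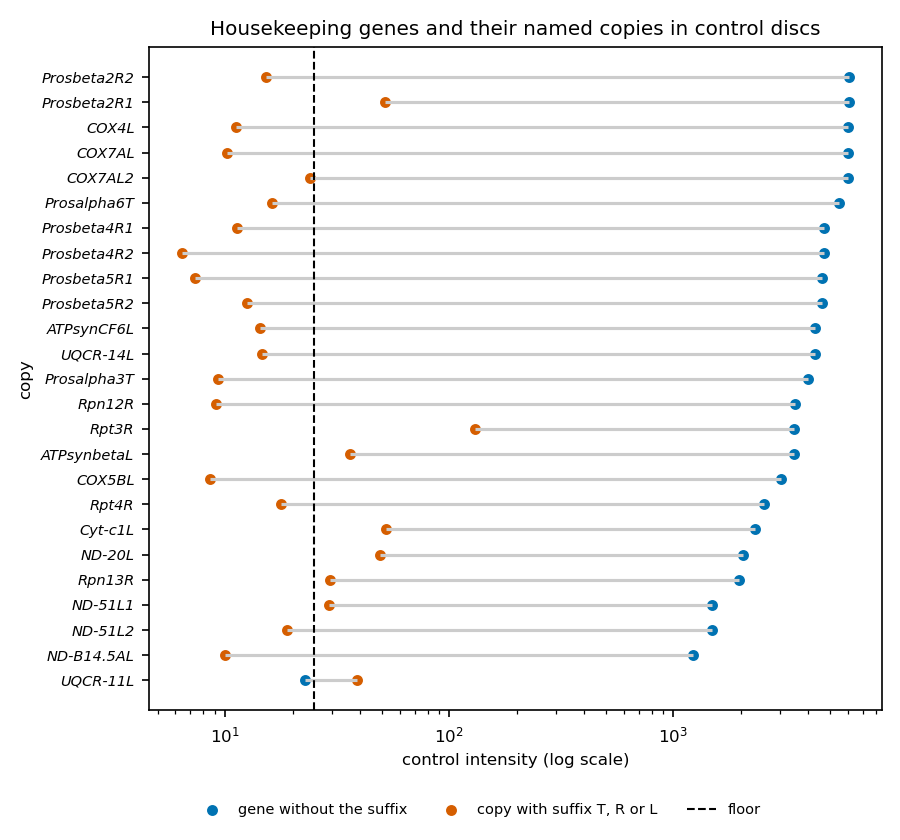
Control intensity on a log axis of 25 genes named as copies (suffix T, R or L, orange) and of the housekeeping genes they are named after (blue), joined by a grey line, with the floor dashed. Of the copies, 17 lie under the floor, and UQCR-11L is the only copy to the right of its named gene.

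Cytoskeletal genes had 25 of 26 at or above the floor and 16 in the top band. Besides tsr and betaTub56D, the myosin light chain gene Mlc-c had 7722, and the profilin gene chic, which supplies actin monomers, had 6324. The member under the floor was alphaTub67C, a maternal alpha-tubulin, at 16.5. Rab GTPases of membrane traffic had 18 of 22 at or above the floor and 0 in the top band, led by Rab10 (1031), Rab18 (688) and Rab14 (633). RabX5 (17.8), Rab9Fb (17.5), Rab26 (17.2) and the synaptic vesicle gene Rab3 (5.05) were under it.

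Genes of DNA replication and mitosis were all at or above the floor, and all but 1 of them at or above 90.5. All 37 measured genes of DNA replication and S phase and all 40 of G2 and mitosis were at or above the floor, against 64.6% of all named genes, and 11 and 12 of them were in the top band. The nucleotide pool enzyme gene dUTPase had 6238, the sliding clamp gene PCNA had 5255 and the chromatin assembly gene Caf1-55 had 3285. The helicase subunits Mcm6, Mcm3, Mcm2 and Mcm5 had 2011, 1837, 1645 and 1200.5, and another chromatin assembly subunit gene was lowest at 99.2. Cyclin E (CycE), which drives entry into S phase, had 615, and its partner kinase Cdk2 had 1004.

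In mitosis, the checkpoint gene Bub3 had 4560.4, the microtubule polymerase gene msps had 2422 and Cks30A had 2112. The mitotic cyclin CycB had 2042 and the Aurora B kinase gene aurB 1134. The lowest was twe at 61.8, a Cdc25 phosphatase known for its role in meiosis. That value lies in the range not clearly set apart from background.

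Cell death genes had 12 of 16 at or above the floor (75%, beside 64.6% of all named genes) and 0 in the top band. The listed genes hid, rpr, Diap1, Drice, Decay, Cyt-c-d and Cyt-c-p are not analysed here. The inhibitor of apoptosis Diap2 had 819, the effector caspase Dcp-1 had 580.4 and AIF had 580.1. The initiator caspase Dronc had 529 and its activator Dark 433. Of the measured genes, the death inducers grim (4.49) and skl (6.7001), the caspase Damm (8.27) and the Bcl-2 family gene Buffy (23.2) were under the floor. Chromatin genes had 38 of 39 at or above the floor and 18 in the top band. The nucleoplasmin-like genes Nlp (11748) and Nph (8512) and the variant histone gene His2Av (8052) were highest, and BigH1, a linker histone of the early embryo and germ line, had 13.4. The Brahma subunit genes mor and brm had 4449.7 and 2412, trithorax (trx) had 1059 and Polycomb (Pc) had 245.

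The epithelium was visible in its junctions. All 40 junction and polarity genes were at or above the floor, and 19 were in the top band. Septate junctions, the permeability barrier of insect epithelia, led with the claudin-like gene pck at 5197, Cont at 3500.4 and Nrx-IV at 3349, followed by sinu (3212), Gli (3175) and kune (2827). The apical determinant crb had 2309, the adherens junction gene alpha-Cat 2175 and the E-cadherin gene shg 275. The basal integrin subunits mys and mew had 1120.1 and 1094. The lowest was dnd at 49.8.

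A list of 11 marker genes of the disc epithelium was read, and 9 of them have values. The others, sd and wg, are not analysed here. The posterior genes en and hh had 1444 and 761. The gene ci, the anterior transcription factor that answers Hedgehog, had 2483, and the Hedgehog receptor ptc had 85.8, under 90.5. The pouch POU factor nub had 2672, the wing selector vg had 1004, the dorsal selector ap had 1130.2, dpp had 686 and the thoracic Hox gene Antp had 704. All 9 were at or above the floor, beside 64.6% of all named genes. So were 21 of 23 leg, antenna and genital genes, so this count does not set a wing disc apart from other discs. Of the 9 markers, only ptc was in the range not clearly set apart from background. The paralogue of en beside it on the chromosome, inv, is no member of the marker list and had 50.6, in the same range.

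Most genes of each territory of the disc were at or above 90.5, where 48.9% of all named genes lay. The counts were 12 of 14 for the anterior to posterior axis and 18 of 22 for dorsal, margin and pouch. For the hinge they were 10 of 13 and for the notum 14 of 18. Of 14 measured genes of the anterior to posterior axis, all were at or above the floor, with 3 in the top band (21.4%). Of all named genes, 64.6% were at or above the floor and 10% in the top band. The Dpp targets salm and bi had 2015 and 1071, salr had 372, and the vein genes kni and kn had 539 and 276. The T-box genes Doc1, Doc2 and Doc3 had 469, 165 and 383. Dorsal, margin and pouch factors had 22 of 22 at or above the floor and 2 in the top band (9.09%), near the share of all named genes. The glycosyltransferase gene fng, which sets the dorsal to ventral boundary by modifying Notch, had 3406, and the adhesion gene trn had 1209.7. In the pouch, vvl had 920.4, dve 735 and Dll 617, and the intervein factor bs had 362. The margin gene ct was at 68.996 and rn at 56.6, both under 90.5.

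In the hinge list 13 of 13 were at or above the floor, beside 64.6% of all named genes. In the top band was 1 of them (7.69%, beside 10%). The zinc finger gene noc had 2125, the zinc finger gene tsh of hinge and thorax had 876, Sox15 had 302, zfh2 had 271, nab had 227 and tio, the paralogue of tsh, had 38.8. In the notum list 17 of 18 were at or above the floor and 2 were in the top band (11.1%), near the share of all named genes. The gene bowl had 2584 and the Iroquois genes ara, caup and mirr, which specify notum, had 1506, 922 and 458. The GATA factor pnr had 386, its partner ush 314, eyg 188 and tup 85.5. The homeobox gene hbn was under the floor at 19.1.

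**Figure D3:**
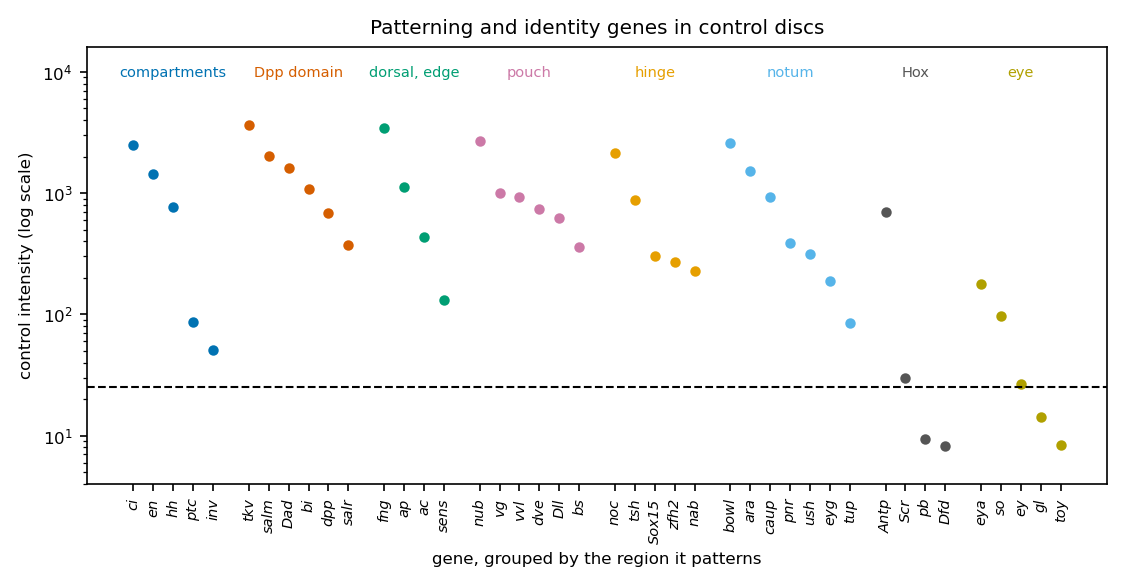
Control intensity on a log axis of patterning and identity genes, grouped by the territory or organ they are known for and ordered by intensity within a group, with the floor dashed. Every gene shown for compartments, Dpp domain, dorsal side and edge, pouch, hinge and notum is above the floor, while pb, Dfd, gl and toy are under it and Scr and ey lie next to it.

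Measured genes for other segments and for the eye were mostly near background. Of 7 genes measured in the Hox complexes, only Antp (704) and Scr (29.9) were at or above the floor, and Antp's other probe sets read 263 and 15.2. The Hox genes Ubx, abd-A, Abd-B and lab are not analysed here, so their levels are not known. The head Hox genes pb and Dfd had 9.38 and 8.21, and bcd, ftz and zen had 14.8, 8.11 and 17.5. Eye genes had 8 of 20 at or above the floor and 2 at or above 90.5. The eye selectors ey and toy had 26.8 and 8.44 and the photoreceptor factor gl had 14.3. The genes eya (176) and so (97.4), partners in the same network, were both above it. Phototransduction genes trp, inaC and inaD had 12.5, 10.1 and 10.4.

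Leg, antenna and genital genes, several of which also act in the wing, were mostly above the floor. Of 23 measured, 21 were at or above it and 14 at or above 90.5. The proximal to distal leg genes dac and al had 583 and 653, bab2 had 896 and its paralogue bab1 65.8. Embryonic segmentation genes had 11 of 21 at or above the floor (52.4%) and 6 at or above 90.5, beside 64.6% and 48.9% of all named genes. The genes opa (567) and ems (982) joined en, hry and kni among the high ones, whereas the gap genes Kr and hb had 4.54 and 4.75. Kr was the lowest of the 21.

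Sensory organ genes were present at moderate levels, with 22 of 27 at or above the floor. The proneural genes ac and sc had 438 and 482, and their partner da had 2191. The antagonists emc and hry, which restrict sensory organs, had 4052 and 1605. The genes sens, neur and phyl, expressed in single precursor cells, had 130.3, 133 and 122. The chordotonal organ gene ato had 91.2, and the neuroblast gene ase had 21.6, under the floor.

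Measured regulators of sex determination were all at or above the floor by their brightest probe sets. The splicing switch Sxl had 568, tra 740.1 and tra2 1114, and dsx had 226, close to the 206 of its other probe set. The other probe sets of Sxl read 530 and 6.83, the latter under the floor. The 7 probe sets of fru ran from 97.6 down to 23.05, also under it. The gene msl-2, whose protein serves dosage compensation in males, had 155. The 14 measured genes of sex determination and dosage compensation were all at or above the floor and 0 were in the top band. Of the strain markers, the pigment gene y, mutant in these flies, had 8.57, under the floor.

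Transcription factors as a class lay above named genes in general by median, but near their share in the top band. Of 260 measured, 203 were at or above the floor, 78.1% against 64.6% of all named genes. In the top band were 30, or 11.5% against 10%. Their median was 209.6 beside 79.1 for all named genes. The 20 highest began with crc, the Drosophila ATF4, at 5467, and the zinc finger genes jim (4883) and woc (4189). The sensory organ antagonist emc and the Notch target E(spl)mbeta-HLH (3693) followed, with the epithelial factor grh at 3656 and the ecdysone response factor br at 3650.3. Next came nub, bowl and ci, then the pioneer factor zld (2468), E(spl)m3-HLH (2268), da, noc and salm. The zinc finger gene ovo (1865), the replication-linked factor Dref (1817), tara (1739), gem (1687) and the ETS repressor aop (1639) closed the list.

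Hedgehog signalling had 14 of 14 measured genes at or above the floor, beside 64.6% of all named genes, and 4 in the top band. At or above 90.5 were 13, and the receptor gene ptc was the lowest at 85.8. The co-receptors ihog and boi had 5104 and 1216, the signal transducer smo had 1497 and the kinesin-like scaffold cos had 1869. The transporter-like gene disp, which releases the ligand, had 747, and rasp, which modifies it, had 391. The ci inhibitor Su(fu) had 577. The kinase genes fu and Pka-C1 and the glypican gene dally are not analysed here.

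Dpp signalling had 22 of 25 genes at or above the floor. Of the ligands, gbb had 2195, dpp 686 and mav 481, while scw (11.2) and Actbeta (6.28) were under it. Of the receptors, tkv had 3609, put 1725 and sax 1067. The Smad genes Mad and Med had 1013 and 97.4, and Smox, of the activin branch, had 587. The feedback genes Dad, which blocks Mad, and magu, which spreads Dpp, had 1608 and 1384. The Dpp modulator gene tsg, known from the embryo, was under the floor at 20.6.

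For Wingless only 10 of 32 listed genes have values, and the ligand wg and its receptors are not analysed here. All 10 were at or above the floor. The genes wls and por, which ready Wnt proteins for secretion, had 2799.7 and 354, and Wnt6 had 260.4. The feedback inhibitors nkd and Notum had 1196 and 65.97, Axn of the destruction complex had 653 and slmb had 504.

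Notch signalling had 24 of 25 at or above the floor and 9 in the top band; the receptor and its ligands are not analysed here. O-fut1, which glycosylates the receptor together with fng, had 2299. The genes of the protease complexes that cut it had 487 for kuz, 1052 for Psn and 891 for pen-2. The target and antagonist genes of the E(spl) and Bearded families spread widely. Tom had 4503, E(spl)malpha-BFM 2089 and E(spl)m2-BFM 1599. E(spl)m7-HLH had 761, E(spl)mdelta-HLH 759 and E(spl)m5-HLH 71.1, and BobA was under the floor at 6.41. The repressors H and gro had 652 and 905, and the coactivator mam had 265.

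The EGF receptor pathway had 20 of 20 at or above the floor and 2 in the top band. The ligand spi had 3001 and Krn 311, and grk, the ligand of the ovary, had 68.5. The receptor Egfr had 583, the adaptor drk 602 and the exchange factor Sos 399.9. The kinase gene Dsor1 had 714. The inhibitors aos, kek1 and sty had 215, 121 and 549.5.

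Of the genes of other receptor tyrosine kinases, 14 of 22 (63.6%) were at or above the floor, close to the 64.6% of all named genes. At or above 90.5 were 8, and the list's median was 46.4 beside 79.1 for all named genes. The Ryk family receptor drl had 4216 and its relative dnt 999. Pvr had 458 and its ligands Pvf2 and Pvf1 397 and 147. The FGF receptors htl of muscle precursors and btl of trachea had 291 and 71.5. The photoreceptor receptor sev had 23.4, Alk 7.05 and its ligand jeb 5.01, all under the floor.

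JAK-STAT genes had 11 of 12 at or above the floor. The receptor dome had 1401 and Stat92E 682, while the ligands upd1 and upd2 had 109 and 28.7. The inhibitor Socs44A had 382 and the inhibitor gene et was under the floor at 19.1.

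Hippo and Fat genes, which limit organ size, had 28 of 28 at or above the floor and 6 in the top band. The atypical cadherin ds had 1924 and the kinase fj, which modifies it, 1282. The Mob family gene Mob4 had 3638. The core kinases hpo and wts had 2201 and 807, their partners sav and mats 547 and 481, and the coactivator yki 949. The upstream genes ex, Mer and kibra had 437, 169 and 141. Planar polarity genes had 12 of 12, with Vang at 1787, stan at 1009.6 and dgo at 223, and mwh, which limits wing hairs at a later stage, at 26.02, next to the floor.

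Insulin and TOR signalling had 30 of 36 at or above the floor. The receptor InR had 470.2 and its adaptor chico 204.8. Downstream, Pdk1 had 653, Akt 846 and the transcription factor foxo 158. Of the TOR branch, Tsc1 and gig had 456 and 437, S6k had 1036, Lst8 1077 and rictor 352, while raptor had 28.96, next to the floor. The cap-binding gene eIF4E1 had 3409.5 and the amino acid transporters path, JhI-21 and mnd had 2300.2, 1152 and 874, whereas slif had 15.7. The insulin-like peptides Ilp2, Ilp5 and Ilp7, made in neurons, had 19.6, 20.1 and 9.196. Ilp8, which damaged or overgrown discs secrete, had 30.4, just above the floor, and its receptor Lgr3 had 15.01.

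Ecdysone response genes and nuclear receptors had 33 of 42 at or above the floor. The receptor EcR had 187 and its partner usp 312. The importer Oatp74D had 859.7 and Cyp18a1, which inactivates the hormone, 539. The gene br had 5 probe sets between 75.3 and 3650.3. The ecdysone-inducible genes ImpE3 and ImpE1 had 3439 and 2752. Hr39 and Hr78 had 1258 and 1542. Hr3 and ftz-f1, used after the pulse, had 44.1 and 79.7, and the pupal factor Eip93F had 7.04. Hormone synthesis genes of the ring gland read 63.9 for dib, 36.04 for sad, 24.4 for spo and 6.61 for nvd.

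Measured genes of stress and immune pathways were mostly at or above the floor, where 64.6% of all named genes lay. JNK and TNF genes had 21 of 23 at or above it. The listed genes Tak1, Rac1, Mmp1, p38b, hid and rpr are not analysed here. The JNK gene bsk had 1572, its kinase hep 337, the AP-1 genes kay and Jra 913 and 626 and the phosphatase puc 542. The TNF gene egr had 83.4 and its receptors wgn and grnd 479.99 and 173. Toll and IMD genes had 28 of 32. The listed genes PGRP-LC, PGRP-SA, PGRP-SD and Toll-6 are not analysed here. Nor are the peptide genes AttA, AttB, AttC, CecA1, CecA2, CecC, DptA and Dro, so their levels are not known. The receptors 18w, Tollo and Tl had 3083, 2354 and 588, the inhibitor cact 1168 and Rel of the IMD branch 530.4. Among antimicrobial peptides, Drs had 160.1, Drsl2 114, Def 111, CecB 50.4, Mtk 31.01, DptB 13.02 and AttD 8.87. The Drosomycin-like genes Drsl4, Drsl5 and Drsl3 had 82.5, 45.6 and 14.1. Of these 10 peptide genes, 7 were at or above the floor, beside 64.6% of all named genes, and 3 were at or above 90.5.

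**Figure D4:**
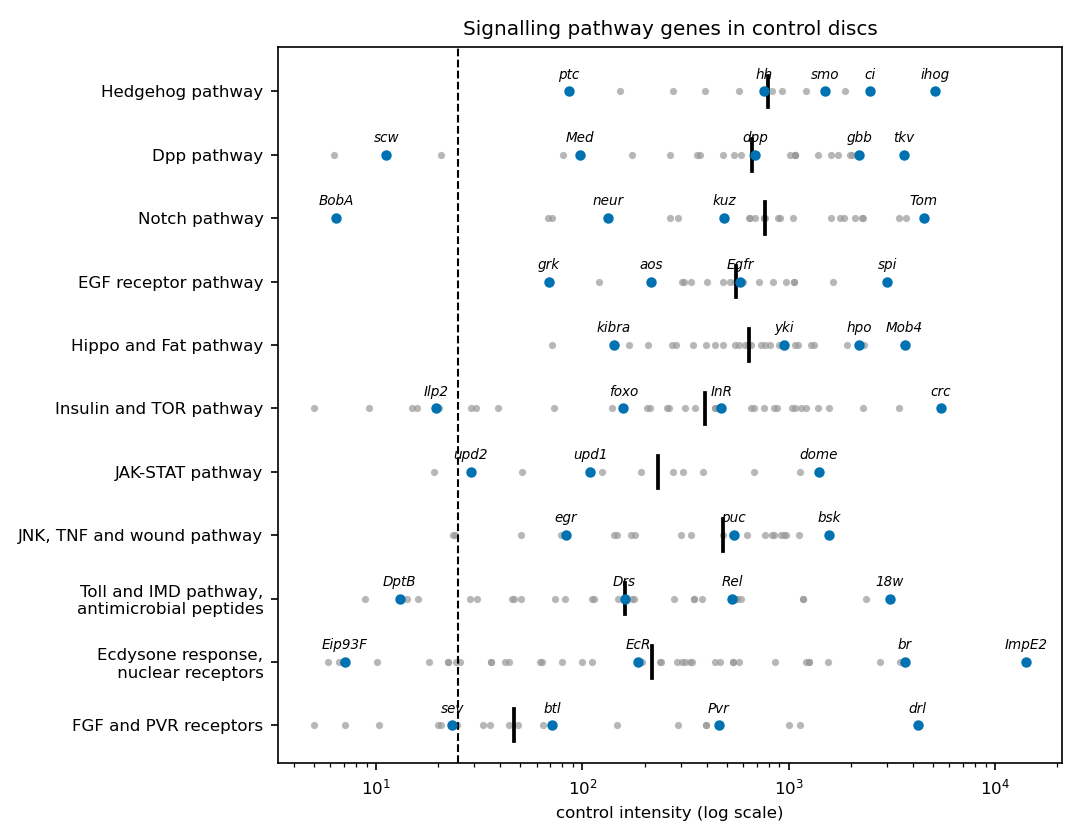
Control intensity on a log axis of the measured genes of 11 signalling lists, 1 point a gene, with the list median as a black bar, the floor dashed and genes named in the text as blue points. The Hedgehog, EGF receptor and Hippo lists lie wholly right of the floor, and the FGF and PVR receptor list has the lowest median, 46.4.

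Detoxification and cuticle families were divided around the shares of all named genes, 64.6% at or above the floor and 10% in the top band. Glutathione S-transferases had 27 of 35 at or above the floor (77.1%) and 10 in the top band (28.6%). GstS1 had 6191 and GstO3 5000.4 after GstD1, and GstD6 was lowest at 10.7. Cytochrome P450s had 26 of 81 at or above the floor (32.1%) and 0 in the top band. Cyp18a1, Cyp310a1 (408) and Cyp4e2 (308) were the highest of them. Cuticle proteins had 57 of 113 at or above the floor (50.4%) and 4 in the top band (3.54%). Cpr49Ac had 5055, obst-A 2623 and Cpr12A 2058. The Osiris family had 9 of 24 at or above the floor (37.5%), led by Osi14 (145), Osi6 (124) and Osi2 (93.4). At or above 90.5 were 20 glutathione S-transferases, 8 cytochrome P450s, 18 cuticle proteins and 3 Osiris genes. Of all named genes, 48.9% lay there.

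Markers of tissues on or near the disc were then read, and their part in the other results was not tested. Adult muscle precursor markers had 18 of 21 at or above the floor, between 17.3 and 7848. The mesodermal factor twi had 189, zfh1 235, Him 312, kon 324 and htl 291; Ama, a secreted adhesion protein gene, had 7848. Hemocyte markers had 25 of 28, between 6.18 and 5878. Hml had 238, Pxn 209.97, He 156, NimC1 152 and eater 81.5, the crystal cell genes PPO1 and PPO2 had 776 and 864, and the crystal cell factor lz was under the floor at 7.404. The collagen and laminin genes vkg, Col4a1 and LanA, made by fat body and hemocytes, had 552, 659 and 2519.8.

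Tracheal markers had 20 of 22 at or above the floor and 9 in the top band, between 7.15 and 5055. Many of them, such as grh, kkv (2770.5) and sinu, are also used in other epithelia, and the defining gene trh is not analysed here. Gasp had 2725, serp 1979, verm 851 and pio 3887, while the tracheal FGF receptor gene btl had 71.5, under 90.5. The members Osi19 and rib were under the floor, and rib was the lowest at 7.15. Fat body markers had 16 of 19, between 8.13 and 1783. The carrier genes Obp99b and Obp99a had 1202 and 1096, and the storage genes Fbp2, Lsp2 and Fbp1 had 727, 629 and 462. The lipoprotein gene apolpp had 106. At or above 90.5, where 48.9% of all named genes lay, were 14 muscle precursor, 17 hemocyte, 17 tracheal and 10 fat body markers. The fat body count, 10 of 19, is near that share.

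Markers of other tissues were at or above the floor about as often as genes in general (64.6%) or less often, by count. Salivary gland markers had 8 of 15 at or above the floor (53.3%), between 5.12 and 193. The glue genes Sgs7, Sgs5, Sgs8 and Sgs3 had 193, 173, 150.4 and 78.5, and Sgs4 and Sgs1 were under it. Gut enzymes had 21 of 42 (50%), between 6.23 and 783. The proteases Jon65Aiv and Jon65Aiii had 572 and 521, and yip7 had 231. Differentiated muscle had 15 of 23 (65.2%), close to the share of all named genes, between 5.83 and 1113. Zasp52 (1113), of integrin junctions in many cells, was highest, Mlc1 had 124, and Mlc2 (7.54) and up (22.2) were under the floor. At or above 90.5 were 3 salivary gland, 8 gut and 7 muscle genes, so most of these counts rest on values close to background.

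Neuron markers had 10 of 27 at or above the floor (37%), between 4.66 and 1151. The pan-neuronal gene elav had 305 and nSyb 28.8, while ChAT (14.8), VGlut (21.1) and para (24.1) were under it. Glial markers had 12 of 18 (66.7%), close to the 64.6% of all named genes, between 6.30 and 3349, and their median was 93.8 beside 79.1 for all. Nrx-IV, a septate junction gene, was highest, moody had 172, and the defining factor repo (15.3) was under the floor. Germ line and ovary genes had 17 of 36, between 5.35 and 835, with vas at 6.99, osk at 9.72 and bam at 19.6, all under the floor. The testis list had 14 of 44, between 5.22 and 197, with betaTub85D at 37.8, aly at 8.74, can at 6.704 and dj at 6.89. Accessory gland genes had 3 of 26, and odorant, gustatory and ionotropic receptors 18 of 166. The floor was taken from odorant and gustatory receptors, so the low receptor share was largely fixed in advance. Gr64a, a sugar receptor gene, was the highest receptor at 140.2. Odorant-binding proteins had 14 of 50, with Obp56a at 1543. At or above 90.5, where 48.9% of all named genes lay, were 5 neuron, 9 glial, 7 germ line and 3 testis genes, 6 odorant-binding protein genes, 1 accessory gland gene and 1 receptor gene.

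**Figure D5:**
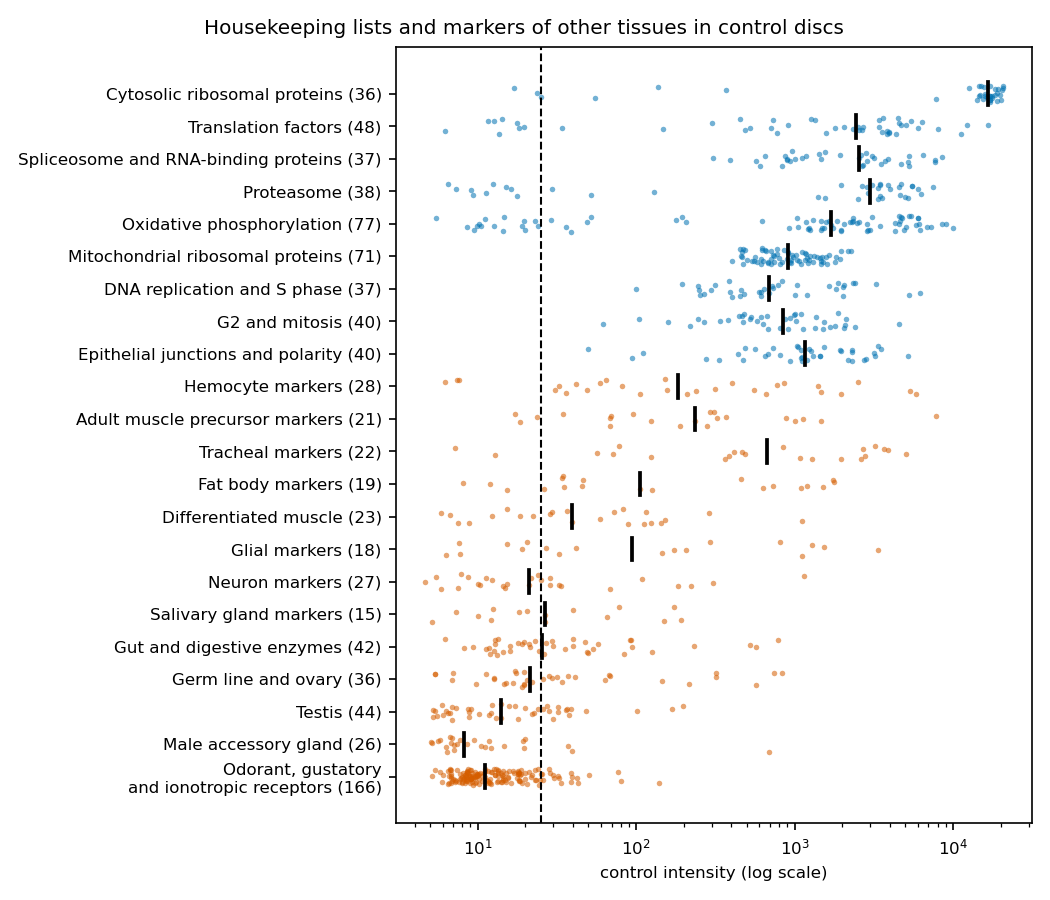
Control intensity on a log axis for 22 gene lists, 1 point a gene (number measured in brackets), with list medians as black bars and the floor dashed. Housekeeping, proliferation and junction lists are blue and markers of other tissues and receptors are orange; the receptor list has a median of 11.1 and the cytosolic ribosomal proteins one of 16728.

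Shares by chromosome lay near those of all named genes, 64.6% at or above the floor and 10% in the top band. The first ran from 62.0% of 2206 on chromosome arm 2L to 68.7% of 1873 on the X and 67.7% of 65 on chromosome 4, and the 7 measured genes of the Y were all under it. The X had 9.02% of its genes in the top band, the lowest share besides the Y. Length and naming were also read by band. Genes of the top band had a median span of 2364 bases, other genes at or above the floor 2731, and genes under the floor 1703. Known only by a CG number were 17.4% of the top band, 39.3% of the other genes at or above the floor and 57.3% of those under it. The 10 highest of these were CG2852 (14288), CG6891 (9684), CG8860 (8841), CG5953 (8763), CG32276 (7925), CG13551 (6342), CG6180 (6141), CG5885 (5637), CG31997 (5622) and CG42748 (5525). Of 77 long noncoding RNA genes, 27.3% were at or above the floor, against 65.1% of 11796 protein-coding genes.

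The array's RNA controls gave 3' to 5' signal ratios of 3.36 for actin, 2.17 for GAPDH, 3.95 for eIF-4a and 4.87 for 18S rRNA. The signal was thus stronger at the 3' end for each of them. How far this lowered probe sets far from the 3' end was not tested.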

How the data were processed

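Per the labels, Trizol was used to extract total RNA from the discs, and the cRNA on the array carried biotin. The deposited values are linear intensity values, 1 per probe set, made by the authors; MAS5 is named in the submitters' processing notes, without settings, and no normalisation is stated there. On the array, values ran from 4.18 to 22610, with a median of 29.8. Other arrays were not used.

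Of 18952 probe sets, 183 were controls, 13647 had 1 gene symbol, 402 several and 4720 none in the platform annotation. Symbols were updated through gene IDs to the RefSeq annotation of Release 6, which matched 13544 probe sets. A gene took its highest probe set, giving 11982 genes. The floor was the 90th percentile of 126 odorant and gustatory receptor probe sets. Members and gene lists were chosen with earlier results of these data known. Some lists were corrected after values were seen: names that only resemble Rab GTPases, accessory gland genes or Dpp genes were taken out, some ribosomal protein names were added and a list for the peripodial layer was dropped. Named were the 25 highest genes, the ligands, receptors, effectors and targets of the pathways, patterning genes and markers, the 3 highest and the lowest of each housekeeping family with members under the floor where 5 or fewer, the 20 highest transcription factors and the 10 highest genes with only a CG number. Some further members are named as examples, chosen after their values were seen.

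With 1 array, no test was possible, and ranks, counts and medians are descriptions. The number of arrays limits the precision. The counting was tested on simulated data and run with Python 3.11.15, pandas 2.3.3 and numpy 2.4.6, and figures were drawn with matplotlib 3.10.9. Alternatives changed the floor, the probe set taken, the probe set type and the width of the top band.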

Additional observations from a re-analysis of the deposited data

Results flagged for a closer look

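Probe sets without a single gene symbol were used in no gene count, and many of them carried signal. Of 4720 probe sets with no symbol, 1488 (31.5%) were at or above the floor of 25.1 taken from the receptor probe sets. Their median was 15.9 and their highest value 22610, the highest on the array, and 252 were at or above the level where the top band of named genes began. Of 402 probe sets with several symbols, 252 (62.7%) were at or above the floor, with a median of 49.3 and a highest value of 18844, and 33 reached the same level. No control sample without disc RNA was measured, so the receptor probe sets served as the background level.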

How the results depend on the processing

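The count of genes at or above the floor, 7743, ranged from 5860 to 10684. It was 10684 with the receptor median (9.76) as the floor, 7115 with the 95th percentile (33.5), 6846 with a floor from the testis list (38.1), 7580 with the mean of a gene's probe sets, 7300 with the lowest, and 6822 of 10978 genes with probe sets lacking the s and x suffixes that mark possible cross-hybridisation. With the floor at the least populated intensity between both groups (90.5), chosen after seeing the data, it was 5860. Over all genes or all lists together, 2 values moved by more than 1.5 times. Without the suffixed probe sets, 13 of the 25 highest genes remained. A top band of 5% in place of 10% of the genes held 251 list genes against 389. The narrower band holds fewer genes by construction, so that drop was in part fixed in advance. By list, the count at or above the floor moved by more than 1.5 times in 14 of 60 lists with the receptor median, 4 with the 95th percentile, 4 without suffixed probe sets and 18 at 90.5. Without suffixed probe sets the count in the top band was less stable, moving by more than 1.5 times in 16 of 60 lists. It moved in 3 lists with the mean and in 3 with the lowest probe set. With the 5% band it moved in 31 of 60 lists, which follows in part from the smaller band itself. With the 5% band, mitochondrial ribosomal proteins went from 19 to 1, mitosis from 12 to 2 and the Dpp pathway from 7 to 1. Without suffixed probe sets, cytosolic ribosomal proteins went from 30 to 16, chaperones from 18 to 11 and the Dpp pathway from 7 to 4, among fewer measured genes. No paired analysis was possible because each group has 1 array, and no replicate could be left out. The promoter motif comparison and both of its alternatives were not run, since no promoter sequences were used here. Signal near the floor limits what can be said of dim genes.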
